A study of Homo sapiens with 8 samples.

Results

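Dexamethasone alone was compared with DMSO vehicle in CUTLL1, an established human line of T-cell acute lymphoblastic leukemia with an activated NOTCH1 gene that is known for its resistance to killing by glucocorticoids. The comparison takes the 2 arrays labelled 1 microM dexamethasone only and the 2 arrays labelled DMSO, 4 of the 8 arrays of the series, each from cells harvested after 48 h. Of the other 4 arrays, 2 come from cells given 1 microM PF-03084014, a gamma-secretase inhibitor that blocks activation of NOTCH receptors, and 2 from cells given 1 microM of each compound, called the combination here. All groups are the same line in the same medium, without another genetic change, and the arrays of a group are labelled as a first and a second replica, with no word on separate cultures. The p-values therefore measure only the spread between these samples, which may be technical.

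Dexamethasone is a synthetic glucocorticoid. It enters the cell and binds the glucocorticoid receptor, encoded by NR3C1, which leaves a complex of HSP90 and cochaperones, moves to the nucleus and raises or lowers transcription from the DNA it occupies. In immature T cells and lymphoid leukemias the receptor is known for inducing growth arrest and death, with the BH3-only gene BCL2L11 (BIM) among its best-studied death targets, and for raising its own transcript in cells that die.

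Each gene was read from its brightest probe set, as a linear intensity, and 19775 genes were tested in 1 limma fit of all 8 arrays. A gene counts as called, and the verbs rose and fell are used, where its p adjusted by Benjamini-Hochberg over all genes was under 0.05. Differences are in log2 units, with the standard error of the fit after the plus-minus sign. The called response was small and mostly upward: 17 genes rose (0.086% of all genes tested), 3 fell (0.0152%), and together they are 0.101% of the genes. At least 2-fold rises numbered 14. At an unadjusted p under 0.05, 1081 genes (5.47%) were higher and 691 (3.49%) lower. The genes that rose hold the classic receptor targets TSC22D3, PFKFB2 and FKBP5, the death gene BCL2L11 and the antiproliferative gene BTG1. Among the others were ITGA6 (adhesion), ISG20 (RNA turnover) and PTCRA (T cell development). Survival genes of the BCL2 family, MYC and the cytosolic cofactors of the receptor other than FKBP5 were not called.

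The arrays of each group were alike. Replicate arrays correlated across genes at 0.991 for DMSO and 0.992 for dexamethasone, and array medians lay between 61.8 and 63.6 in these 4 arrays. The ratio of the 3 prime to the 5 prime control probe set of GAPDH, a sign of RNA integrity, was 0.957 to 0.979, and that of ACTB 1.92 to 2.26. Measured T lineage markers summed to 47119 and 47416 with DMSO and to 48418 and 49099 with dexamethasone, and all 11 were far above background. Sums over B lineage (6 markers), myeloid (7), NK (4), erythroid and megakaryocyte (5) and epithelial and stromal markers (8) lay between 191 and 1001 on these arrays. The B lineage sums were higher with dexamethasone (908 and 881 against 1001 and 997), and the myeloid sums (555 and 606 against 473 and 489) and the epithelial and stromal sums (606 and 653 against 595 and 563) lower. Within them the B cell receptor gene CD79A read 297 and 300 with DMSO and 444 and 434 with dexamethasone (0.56, adjusted p = 0.174), the integrin gene ITGAM read 330 and 372 against 218 and 208 (-0.72, adjusted p = 0.305), and CD14 lay below an intensity of 16 on all 4 arrays. No marker of another cell type was called, and their part in the results was not tested.

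The targets that mark a working receptor were high on both dexamethasone arrays. TSC22D3 encodes GILZ, a leucine zipper protein that binds and restrains other transcription factors. Its intensity was 506 and 583 with DMSO and 5526 and 5478 with dexamethasone. Both treated arrays lay far above both controls. Between the group means the rise was 3.34 ± 0.082 (10.1-fold, adjusted p = 0.0014), with the smallest p of all genes tested. Another TSC22D3 probe set gave 3.23 and the last, near background, 0.39.

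PFKFB2 encodes the bifunctional enzyme that sets the level of fructose 2,6-bisphosphate, an activator of glycolysis. It read 257 and 288 with DMSO and 2822 and 2958 with dexamethasone, a rise of 3.41 ± 0.14 (10.6-fold, adjusted p = 0.00822). The treated arrays lay far above the controls, and 3 of its 4 probe sets were called in a fit of all 41097 probe sets, which called 20 (0.0487%). FKBP5, an HSP90 cochaperone that lowers the affinity of the receptor for its ligand, was already bright without the drug at 5932 and 6398, and read 9736 and 9957 with it. Its groups did not overlap and it rose by 0.68 ± 0.056 (1.60-fold, adjusted p = 0.0466). The FKBP5 probe sets disagreed in size, at 0.68, 1.03 and 1.34, and the brightest had the smallest. None of them was called in the fit of probe sets, where the calls of FKBP5, H2AC6, ITGA6, LINC01215, LOC105376944 and TARS3 were lost (adjusted p = 0.0549 to 0.0735) and those of the other 14 called genes were kept.

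**Figure D1:**
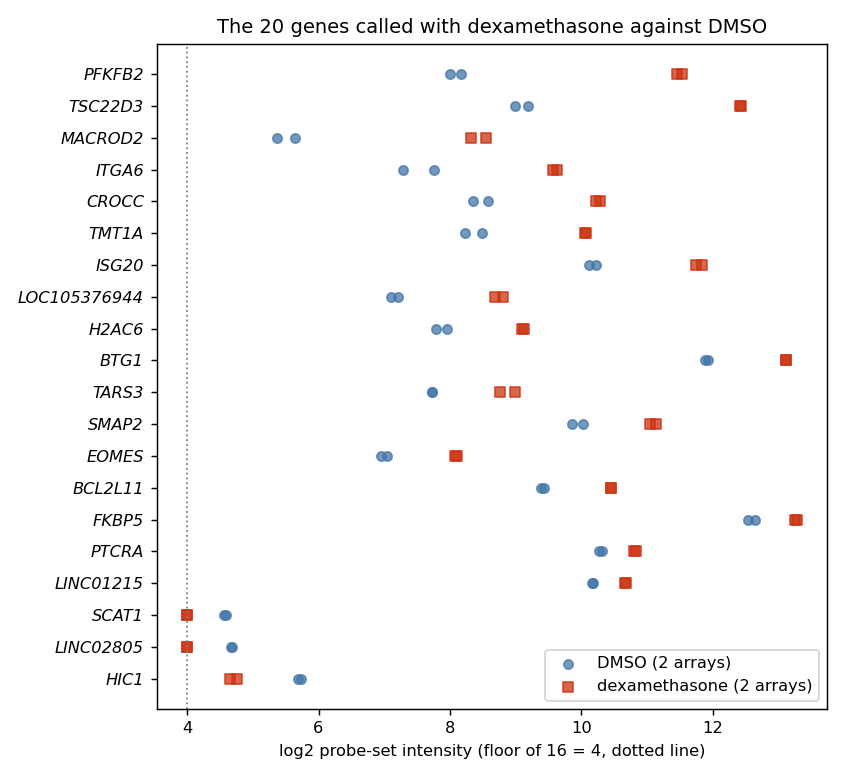
Log2 probe-set intensity of the 20 called genes (horizontal axis) on each of the 2 DMSO arrays (circles) and each of the 2 dexamethasone arrays (squares); the dotted line is the floor of 16. In the 17 genes at the top both dexamethasone arrays lie to the right of both DMSO arrays, from 10.6-fold for PFKFB2 to 1.42-fold for LINC01215, and the 3 genes that fell lie near the floor.

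The glucocorticoid receptor binds DNA as a dimer, at AGAACA hexamers that face each other across 3 bases (the glucocorticoid response element), and the start regions of the called genes were searched for it in RefSeq sequence (GRCh38.p14, 250 bases before to 50 after each annotated gene start, both strands). The full element with all its letters stood in 1 of 35116 windows and in none of the 22 windows of the 15 called genes that had one. The shorter core ACANNNTGT, which every full match contains, stood in 1885 windows (5.37%), and in 3 of the 22 windows of called genes, those of TSC22D3 and MACROD2. The TSC22D3 windows with the core overlap and hold the same site, so by gene the core stood in 2 of 15 called genes, against 6.54% of all genes. Windows at other annotated starts of TSC22D3 and MACROD2 held no core. Which start the induced transcripts use was not tested. Among known glucocorticoid responders listed for this comparison it stood in 4 of 42 windows, those of SESN1, TSC22D3 and TXNIP. A match is a description of letters and says nothing of binding. The stretches that hold the core in both called genes are shown because these genes rose 10.1-fold and 7.59-fold, 5 prime to 3 prime on the strand of the gene with the core in capitals. That of TSC22D3 is chrX:107775987-107776238 on the minus strand and its core starts 7 bases before an annotated start; that of MACROD2 is chr20:15196689-15196817 on the plus strand and its core starts 91 bases before an annotated start inside the gene.
TSC22D3: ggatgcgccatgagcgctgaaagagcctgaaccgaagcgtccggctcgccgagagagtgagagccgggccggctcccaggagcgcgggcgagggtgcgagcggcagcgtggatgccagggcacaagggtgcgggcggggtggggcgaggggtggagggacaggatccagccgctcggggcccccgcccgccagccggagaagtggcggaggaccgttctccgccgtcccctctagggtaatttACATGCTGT
MACROD2: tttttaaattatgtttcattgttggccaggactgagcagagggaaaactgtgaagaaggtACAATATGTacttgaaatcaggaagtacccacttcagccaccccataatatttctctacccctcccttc

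Genes of cell death and growth arrest were among those that rose. BCL2L11, whose protein BIM neutralizes the survival proteins of its family, read 667 and 692 with DMSO and 1395 and 1397 with dexamethasone. The arrays of a group differed by little against the gap between the groups, and the gene rose by 1.04 ± 0.068 (2.05-fold, adjusted p = 0.029). All 7 probe sets of BCL2L11 had both dexamethasone arrays above both DMSO arrays, with differences of 0.16 to 1.04. Only the one used here was called on its own. It was picked as the brightest over all arrays of the series, and it read highest on the combination arrays (3115 and 3265). Another probe set was brighter with DMSO, at 1054 and 1008, and read 1179 and 1141 with dexamethasone. Its difference was only 0.17, so the size of the BCL2L11 rise and its call depend on the probe set chosen. BTG1, an antiproliferative gene of the BTG and TOB family, read 3789 and 3888 against 8851 and 8852, a rise of 1.21 ± 0.039 (adjusted p = 0.00294). Its 3 probe sets gave differences of 1.21 to 1.51.

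BMF, another BH3-only death gene, read 59.0 and 54.4 with DMSO and 247 and 284 with dexamethasone. The groups were far apart, at 2.23 ± 0.20, yet the gene missed the threshold (adjusted p = 0.0563). PIK3IP1, an inhibitor of phosphatidylinositol 3-kinase, stood at 138 and 271 against 1086 and 1018 (2.44 ± 0.30, adjusted p = 0.111), and its DMSO arrays were far from each other. TXNIP, which binds thioredoxin and limits glucose uptake, read 45.8 and 60.1 against 178 and 154 (1.66 ± 0.21, adjusted p = 0.112). BMF, PIK3IP1, TXNIP and the zinc finger gene KLF13 were each called when genes with a mean intensity under 100 were left out. That mean runs over all arrays of the series, those with dexamethasone included. BMF reached 579 and 518 with the combination, so its own higher values helped it pass, and its call there is not independent of them. TXNIP was below 100 only on the DMSO arrays. The same genes were also called when 16 was added to each value in place of the floor.

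On the other side of the balance, the survival genes showed no called change. BCL2 read 1347 and 1394 with DMSO and 1218 and 1367 with dexamethasone, so its groups overlapped (-0.09, 95% interval -0.32 to 0.15). MCL1 read 4688 and 4546 against 4731 and 4455, also overlapping (-0.01, 95% interval -0.21 to 0.19). BCL2L1 had both dexamethasone arrays higher, at 2470 and 2404 against 2160 and 2182, a difference of 0.17 ± 0.032 that was not called (adjusted p = 0.237). The 4 probe sets of BCL2 gave -0.71 to -0.09, 2 of them with both dexamethasone arrays below both DMSO arrays. The 6 of MCL1 gave -0.27 to 0.26, with 2 above and 2 below, and the 4 of BCL2L1 gave 0.17 to 0.40, all above. Of the 12 measured death members of the family, 1 was called, 5 had both dexamethasone arrays above both DMSO arrays and 2 below. The median difference was 0.12, or 0.06 without the first DMSO array and 0.26 without the second. The differences ran from -0.51 for HRK, another BH3-only gene, to 2.23 for BMF. Of the 6 survival members none was called, 2 were above and none below. Over all genes tested, 24.9% lay above in this sense and 17.7% below, and the median difference was 0.014. Among 24 caspases, death receptors and inhibitors of apoptosis none was called, 8 were above and 4 below, with differences from -0.40 for CASP10 to 0.47 for CASP9 (adjusted p = 0.537).

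**Figure D2:**
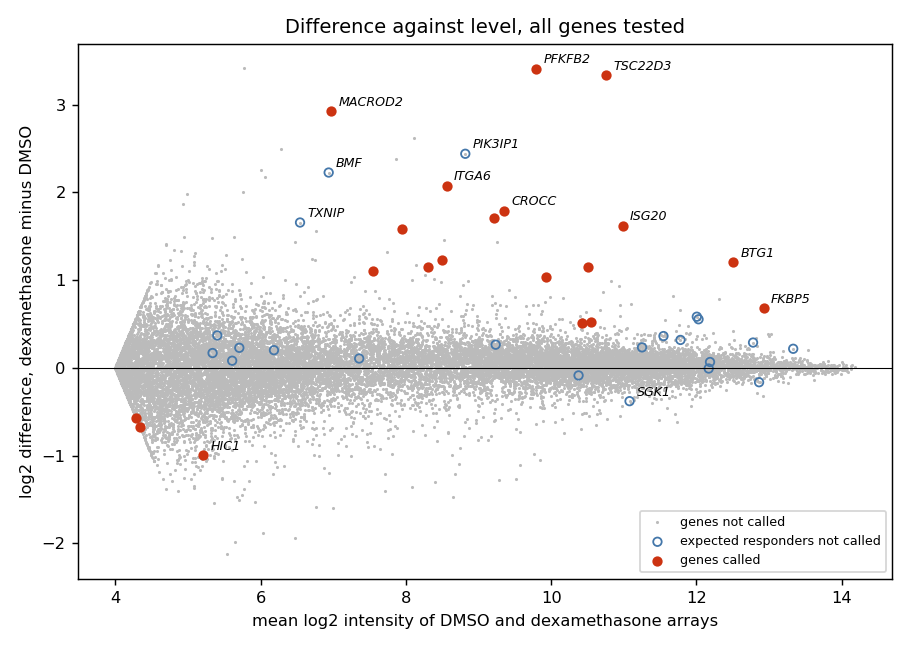
Log2 difference between dexamethasone and DMSO (vertical axis) against the mean log2 intensity of the 4 arrays (horizontal axis) for all 19775 genes; filled circles are the 20 called genes and open circles the expected responders that were not called. The spread of the grey points widens towards low intensity, where BMF at 2.23 and TXNIP at 1.66 lie among uncalled genes, while FKBP5 was called at 0.68 at high intensity.

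Further genes that rose act in RNA turnover, membrane traffic and metabolism. ISG20, an exonuclease that degrades RNA and is induced by interferon, read 1114 and 1201 with DMSO and 3662 and 3445 with dexamethasone, a rise of 1.62 ± 0.085 (3.07-fold, adjusted p = 0.019), and its other probe set gave 1.63. It was the single called gene of 30 measured genes of the type I interferon response, of which 9 were above and 5 below; RSAD2, an antiviral enzyme, was lowest at -0.32. SMAP2, a GTPase-activating protein for Arf in vesicle traffic, read 924 and 1044 against 2108 and 2239 and rose by 1.15 ± 0.075 (adjusted p = 0.029). TMT1A, a thiol methyltransferase gene formerly named METTL7A, read 300 and 358 against 1066 and 1074 and rose by 1.71 ± 0.11 (adjusted p = 0.029). Its arrays did not overlap, but its 4 probe sets spread from 0.06 to 1.71.

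MACROD2, which removes ADP-ribose from proteins, was dim without the drug at 50.1 and 41.4 and reached 319 and 374 with it. It rose by 2.92 ± 0.17 (7.59-fold, adjusted p = 0.0241); a second probe set gave 2.83 and the others -0.02 and -0.24. TARS3, a cytosolic threonyl-tRNA synthetase, read 212 and 212 against 435 and 510 and rose by 1.15 ± 0.093 (adjusted p = 0.0466). Its other probe set gave 0.20. CROCC, the rootletin gene, read 325 and 382 against 1251 and 1191 and rose by 1.79 ± 0.11 (adjusted p = 0.029). Its probe set is of the class shared among transcripts, as are those used for TSC22D3, BTG1, TMT1A, H2AC6 and LOC105376944. The other probe sets of CROCC gave 0.45 and 0.29, and signal of near-identical copies cannot be told apart, so its identity is uncertain. H2AC6, a histone H2A gene, read 221 and 248 against 557 and 546 and rose by 1.23 ± 0.10 (adjusted p = 0.0466). Of 26 measured histone cluster genes it alone was called, and 10 were above and 8 below, H2BC13 lowest at -0.75. Histone genes are near-identical to each other, so the probe set may also read its relatives.

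Adhesion and T cell genes gave a narrower set. ITGA6, the integrin alpha 6 subunit of laminin receptors, read 156 and 216 with DMSO and 788 and 762 with dexamethasone, a rise of 2.08 ± 0.17 (4.22-fold, adjusted p = 0.0466). It was the only called member of 26 measured homing receptors and integrins, among which 8 lay above and 7 below. S1PR1, which guides T cells out of lymphoid organs, was lowest, at 315 and 277 against 157 and 190 (-0.78, adjusted p = 0.312). EOMES, a T-box transcription factor of memory and cytotoxic T cells, read 132 and 123 against 270 and 276 and rose by 1.10 ± 0.092 (adjusted p = 0.0466). PTCRA, a NOTCH target that encodes the pre-T alpha chain, read 1273 and 1236 against 1779 and 1814 and rose by 0.52 ± 0.040 (1.43-fold, adjusted p = 0.0466).

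Of 31 measured T cell receptor and thymocyte genes, PTCRA alone was called, 17 (54.8%) lay above and 7 (22.6%) below, and the median was 0.07. RAG1, which cuts DNA in receptor gene rearrangement, read 1167 and 1321 with DMSO and 2055 and 2467 with dexamethasone (0.86 ± 0.16, adjusted p = 0.230). Its partner RAG2, named after its values were seen, read 726 and 761 against 1198 and 1299 (0.75, adjusted p = 0.133). CD38, a surface ectoenzyme, was on the other side at 1964 and 1853 against 1336 and 1388 (-0.49, adjusted p = 0.248). Of 23 NOTCH receptors and targets, again only PTCRA was called, 7 were above and 4 below, from NOTCH2 at -0.22 to NOTCH3 at 0.70. Of the 26 transcription factors of the T lineage none was called, 6 were above and 8 below, from HHEX at -0.43 to LMO2 at 0.38, and TOX had the smallest p (-0.21, adjusted p = 0.299).

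Noncoding transcripts also appeared among the called genes. LOC105376944 read 149 and 138 with DMSO and 412 and 446 with dexamethasone and rose by 1.58 ± 0.13 (adjusted p = 0.0466). Its 6 probe sets, most of them dim, gave -0.10 to 1.58, and 4 had both dexamethasone arrays above. LINC01215 read 1159 and 1142 against 1626 and 1647 and rose by 0.51 ± 0.041, the smallest called rise (adjusted p = 0.0466). No function is given for either in the annotation used here.

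The 3 genes that fell were all dim. HIC1, a transcriptional repressor, read 53.0 and 51.4 with DMSO and 27.1 and 25.2 with dexamethasone, a fall of 1.00 on the log2 scale (SE 0.073, adjusted p = 0.04). Its other probe set, near background, overlapped, at 28.0 and 24.5 against 19.5 and 30.3. LINC02805 read 25.4 and 25.7 against 12.3 and 12.4, and SCAT1 23.7 and 24.1 against 11.2 and 5.9. The dexamethasone values of the latter pair lie below the floor of 16, so the fitted falls of 0.67 and 0.58 (adjusted p = 0.0328 and 0.0466) are set by that floor and give no measured size. Bacterial control probe sets without a spike had a median of 18.9 to 21.9 on these 4 arrays, so SCAT1 and LINC02805 were within a few units of background even with DMSO. No gene fell 2-fold and passed the threshold, and with a floor of 64 these 3 genes had no difference left to test.

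Among genes that missed the threshold, differences were as large. By fitted difference alone 76 genes were at least 2-fold higher and 85 at least 2-fold lower. Where both groups stayed apart and the higher one averaged at least 100, 36 were higher and 22 lower. Without such a filter, 482 genes differed 2-fold between the DMSO arrays and 426 between the dexamethasone arrays. Those are differences between single arrays, which spread more than differences between group means, so the counts are not directly comparable. The largest fitted difference of all genes, 3.42 ± 0.37, was that of the uncharacterized gene LOC101927432, at 17.5 and 4.91 with DMSO and 200 and 160 with dexamethasone, which was not called (adjusted p = 0.0853). Of the other large uncalled differences upward, the sialyltransferase gene ST3GAL6 read 81.7 and 151 against 651 and 716 (2.62 ± 0.29, adjusted p = 0.0857). The p53 target TP53INP1 read 28.6 and 37.6 against 180 and 191 (2.50 ± 0.28, adjusted p = 0.0915). The noncoding gene LINC01120 read 118 and 88.9 against 576 and 492 (2.38 ± 0.23, adjusted p = 0.0595). The standard errors of these genes were larger than the 0.17 of MACROD2. CTTNBP2 (20.6 and 41.7 against 137 and 143), SPART (12.7 and 61.4 against 137 and 146) and FAM167A (39.8 and 18.4 against 114 and 104) stood at 2.25, 2.18 and 2.01, with DMSO arrays far from each other.

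Downward, the largest differences of this kind came from spread arrays. The neural crest factor gene SOX10 read 86.7 and 116 with DMSO and 39.9 and 13.3 with dexamethasone (-1.99 ± 0.77), the smooth muscle actin gene ACTG2 read 222 and 137 against 70.7 and 28.9 (-1.95 ± 0.98), NOTCH4 read 93.4 and 170 against 1 and 73.1 (-1.88 ± 0.80), and TMEM150B read 128 and 83.6 against 79.9 and 4.47 (-1.53 ± 0.97). All 4 had adjusted p-values of 0.547 to 0.776. With closer replicates, the GTPase gene GEM read 497 and 378 with DMSO and 159 and 180 with dexamethasone (-1.36 ± 0.17, adjusted p = 0.107). The cytokine gene IL26 read 241 and 145 against 59.3 and 66.0 (-1.58 ± 0.30, adjusted p = 0.234). CDKN1A, the p21 inhibitor of cyclin-dependent kinases, read 410 and 282 against 116 and 142 (-1.40 ± 0.28, adjusted p = 0.246). In other cases 1 DMSO array enlarged the difference, while the other also lay above both dexamethasone arrays. ANTXR2 read 1359 and 328 with DMSO against 220 and 262, and the cystine transporter gene SLC7A11 read 1775 and 730 against 452 and 496 (-1.26, adjusted p = 0.460). GPR171 at 430 and 115 against 75.9 and 70.8 and ENPP1 at 812 and 349 against 225 and 207 had the same first DMSO array on top.

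Of 28 expected responders listed for this line, 27 had a probe set of their own, and BTG2 was not analysed here. Of these, 5 were called (TSC22D3, PFKFB2, BTG1, BCL2L11 and FKBP5), 10 were not called although their 95% interval, which is not adjusted for the number of genes, excluded 0, and 12 had an interval that spanned 0. Over all genes tested 91.0% of such intervals spanned 0. By array, 19 of the 27 lay above, 2 below and 6 overlapped, where 24.9% of all genes tested lay above and 17.7% below. The list set no direction for its members. It also holds BCL2, MCL1, MYC and CCND3, so a gene that did not lie above is not in itself a missing response. All 28 genes were picked with results of these arrays known, so their share is a description.

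NR3C1, the receptor gene itself, read 2932 and 3384 with DMSO and 3947 and 3906 with dexamethasone. Its treated arrays lay above both controls, by 0.32 ± 0.072 (95% interval 0.14 to 0.50), and it was not called (adjusted p = 0.299). Its 5 probe sets gave 0.29 to 0.58, 4 of them with both dexamethasone arrays above. KLF13, bright in both groups, read 3292 and 3612 against 5066 and 5056 (0.55 ± 0.071, adjusted p = 0.112). GLUL, glutamine synthetase, read 2969 and 3800 against 4954 and 5107 (0.58 ± 0.17, adjusted p = 0.420). IL7R, the interleukin 7 receptor gene, read 6562 and 6168 against 7686 and 7849 (0.29 ± 0.051, adjusted p = 0.210). All 4 had groups that did not overlap, and the upper ends of their intervals were 0.50, 0.73, 1.02 and 0.42.

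Other textbook targets had small differences and no call. DUSP1, a phosphatase of MAP kinases, read 552 and 548 with DMSO and 676 and 645 with dexamethasone (0.26 ± 0.049, adjusted p = 0.220). DDIT4, an inhibitor of mTORC1 signalling, read 8911 and 10270 against 11060 and 11170 (0.22 ± 0.072, adjusted p = 0.466). NFKBIA, the inhibitor of NF-kappaB, read 2277 and 2219 against 2729 and 2558 (0.23, 95% interval -0.19 to 0.65). Each of them had both dexamethasone arrays above both controls. The 95% intervals of DUSP1 (0.14 to 0.39) and DDIT4 (0.04 to 0.40), which are not adjusted for the number of genes, excluded 0.

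SGK1, a serum- and glucocorticoid-induced kinase, lay on the other side: 2733 and 2228 with DMSO and 1940 and 1853 with dexamethasone (-0.38 ± 0.10, adjusted p = 0.374). CCND3, cyclin D3, read 7813 and 7952 against 7179 and 6890 (-0.16 ± 0.066, adjusted p = 0.561), and MYC read 4878 and 4256 against 4916 and 4628 with overlapping groups (0.07, 95% interval -0.19 to 0.32). These intervals leave out a 2-fold change in either direction for each of the 3 genes. SOCS1, a feedback inhibitor of cytokine receptors, read 2842 and 2448 against 3295 and 3487 (0.36, 95% interval -0.02 to 0.75).

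The remaining expected targets were dim or overlapped. ZBTB16 (PLZF) read 66.6 and 69.0 against 87.9 and 69.0, KLF9 48.7 and 46.2 against 49.2 and 51.2, and CEBPD 31 and 47.0 against 50.8 and 36.2. Their 95% intervals were -0.42 to 0.82, -0.31 to 0.47 and -0.50 to 0.83. PDK4, a kinase that restrains pyruvate oxidation, read 38.0 and 36.5 against 59.9 and 38.6, with an interval of -0.89 to 1.63. ERRFI1, a feedback inhibitor of EGF receptors, read 42.4 and 54.9 against 47.4 and 67.3, with an interval of -0.49 to 0.94, and SESN1, a stress-induced inhibitor of mTORC1, read 169 and 148 against 165 and 175, with -0.21 to 0.42. The interval of KLF9 leaves out a rise of 0.5 or more, whereas that of PDK4, whose dexamethasone arrays differed from each other, still includes a 2-fold rise.

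**Figure D3:**
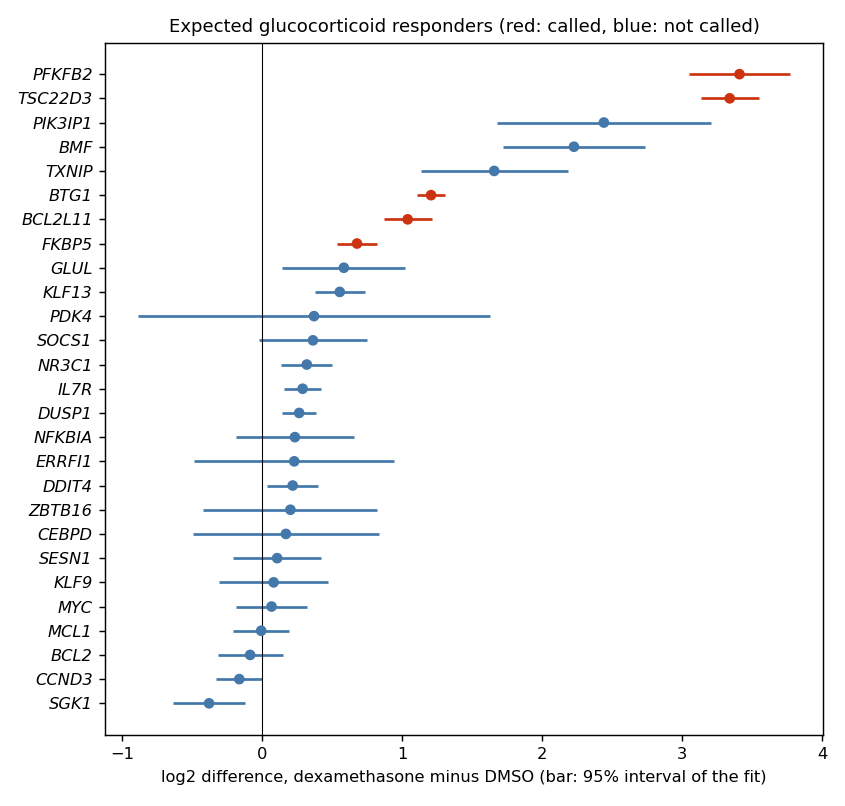
Log2 difference between dexamethasone and DMSO (horizontal axis) for the 27 expected glucocorticoid responders measured, with the 95% interval of the fit as a bar. The 5 called genes are red; PIK3IP1, BMF and TXNIP lie at 1.66 to 2.44 with wide bars and were not called, and SGK1 lies lowest at -0.38.

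Gene lists were described by counts and medians, beside the same for all genes (24.9% above, 17.7% below, median 0.014). Of 40 genes that glucocorticoids induce in many tissues, 3 were called (TSC22D3, FKBP5 and TMT1A), 19 (47.5%) were above and 7 (17.5%) below, with a median of 0.17 (0.10 without the first DMSO array). Of 28 such genes of lymphoid cells, 5 were called (PFKFB2, ISG20, BTG1, SMAP2 and BCL2L11), 16 (57.1%) were above and 5 (17.9%) below, with a median of 0.23 and the pyroptosis gene GSDME lowest at -0.66. These lists were written with results of these arrays known, so their counts are not independent evidence of a direction. The liver enzyme gene TAT, a classic target, was dim and lay lower, at 87.1 and 89.1 against 38.9 and 45.7 (-1.06 ± 0.27, adjusted p = 0.323). Of 33 genes for the receptor, its chaperones and its cofactors, FKBP5 alone was called, 9 were above and 6 below, with HSD11B2, which inactivates glucocorticoids, lowest at -0.35. The median was 0.02, and -0.03 without the first DMSO array, 0.06 without the second and 0.005 without the second dexamethasone array.

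Genes known to be repressed by glucocorticoids held no call. Of 29 cytokine, NF-kappaB and AP-1 genes none was called, 4 were above and 9 (31%) below, from the chemokine genes CCL4 at -0.57 to CXCL8 at 0.41. The median was -0.07, and -0.11 without the first DMSO array, -0.03 without the second and -0.04 without the second dexamethasone array. The smallest p was that of CD83, a surface marker of activation, at 493 and 446 against 370 and 366 (-0.35, adjusted p = 0.246). The metallothioneins, zinc-binding proteins that glucocorticoids raise in other tissues, lay lower where they differed: of 9 none was called, none was above and 5 were below, and MT3 was highest at 0.07. The median was -0.26, and -0.49 without the first DMSO array, -0.13 without the second and -0.16 without the first dexamethasone array. Between the combination and PF-03084014 the same list had a median of 0.14. MT1G read 979 and 981 with DMSO and 583 and 595 with dexamethasone (-0.73, adjusted p = 0.246). Metallothionein genes are near-identical, so their probe sets may share signal.

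Cell cycle genes lay slightly lower as a group without any call. Of 35 genes of DNA replication and G1/S, 27 (77.1%) had both dexamethasone arrays below both DMSO arrays and none above, with a median of -0.13, and of 34 mitotic genes 29 (85.3%) were below and none above, with a median of -0.13. In bulk RNA a smaller share of cycling cells and less RNA per cell cannot be told apart. PRC1, a mitotic spindle protein, read 4472 and 4529 with DMSO and 3593 and 3613 with dexamethasone (-0.32, adjusted p = 0.235), and CDC45, a replication factor, read 2631 and 2675 against 2359 and 2184 (-0.23, adjusted p = 0.277). CDK2 was nearest to the threshold, at 3606 and 3484 against 2804 and 2798 (-0.34 ± 0.034, adjusted p = 0.0689). Of 20 G1 cyclins, kinases and inhibitors 11 were below and 1 above (CDK6, 0.09), and of 12 antiproliferative genes of the BTG and TOB kind BTG1 alone was called, 5 were above and 4 below, KLF4 among the lowest at -0.37. The S-phase regulator E2F1 read 1301 and 1175 against 1027 and 889 (-0.37, adjusted p = 0.470), and the highest cell cycle members were RPA2 at 0.001 and BUB1B at 0.04.

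Lipid genes lay lower as well. Of 19 measured genes of cholesterol synthesis and uptake none was called, 14 (73.7%) were below and 2 above, with a median of -0.21 and TM7SF2 highest at 0.37. STARD4, a sterol carrier, read 1325 and 1465 with DMSO and 951 and 904 with dexamethasone (-0.59 ± 0.082, adjusted p = 0.132). Of 12 fatty acid genes 7 (58.3%) were below and none above, with a median of -0.14 (-0.24 without the first dexamethasone array), ELOVL5 was nearest to 0 at -0.08, and the elongase gene ELOVL6 read 1983 and 1959 against 1230 and 1269 (-0.66 ± 0.088, adjusted p = 0.121). Of 25 genes of amino acid supply and polyamines 12 (48.0%) were below and 3 above, with a median of -0.10 that was -0.02 without the first DMSO array. ODC1, the first enzyme of polyamine synthesis, was highest at 0.22, and PHGDH, the first of serine synthesis, had the smallest p (-0.26, adjusted p = 0.327). Of 25 genes of the unfolded protein and integrated stress responses 9 were below and 2 above, with XBP1 highest at 0.33; CHAC1, a glutathione-degrading enzyme, read 129 and 59.7 against 32.0 and 35.4 (-1.38), again with the first DMSO array highest.

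Genes of energy and protein production lay the other way or did not lean. Of 32 respiratory chain genes 19 (59.4%) were above and 2 below, from SDHA at -0.07 to NDUFA10 at 0.18, but the median was only 0.06 (0.03 without the first dexamethasone array). Of 27 cytosolic ribosomal protein genes 15 were above and 1 below, from RPLP1 at -0.04 to RPS9 at 0.08, with a median of 0.02. Between the combination and PF-03084014 the medians of these lists were -0.09 and -0.07, while that of ribosome biogenesis was 0.04 and that of all genes 0.03. In that comparison the medians were -0.51 for DNA replication and G1/S, -0.26 for mitosis, -0.53 for cholesterol genes and -0.25 for fatty acid genes. The list of glucocorticoid-induced genes of lymphoid cells had 0.47 and that of many tissues 0.12. Of 27 ribosome biogenesis genes 13 (48.1%) were above and 2 below, with a median of 0.09, from BYSL at -0.10 to POLR1C at 0.28. Of 32 glycolysis and glucose uptake genes PFKFB2 alone was called, while 5 were above and 9 below; the aldolase gene ALDOC read 2000 and 2302 against 1394 and 1463 (-0.59, adjusted p = 0.132). Of 25 FOXO targets and quiescence genes 1 was called (TSC22D3), 9 were above and 4 below. Purine and folate synthesis (5 above and 8 below of 25), JAK-STAT signalling (7 and 5 of 19), autophagy (10 and 2 of 30) and RAS-MAPK feedback (6 and 3 of 21) held no called gene. Their lowest members were SHMT1 (-0.40), JAK3 (-0.39), TFEB (-0.46) and DUSP4 (-0.80), and their highest, apart from SOCS1 and DUSP1, were GART (0.11) and GABARAPL1 (0.27).

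**Figure D4:**
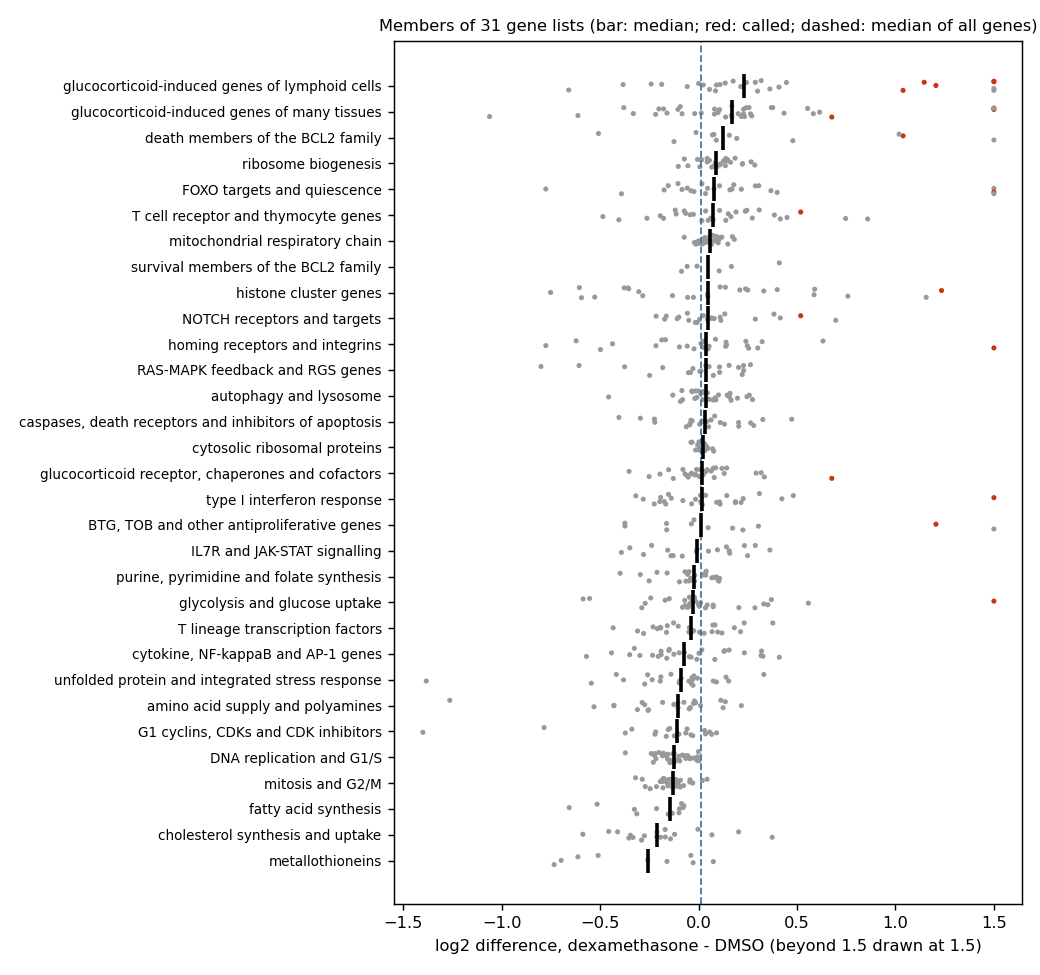
Log2 difference between dexamethasone and DMSO (horizontal axis) of each measured member of 31 gene lists (points; red if called; beyond 1.5 drawn at 1.5), with the median of each list as a bar and the median of all genes, 0.014, as a dashed line. List medians run from -0.26 for metallothioneins to 0.23 for glucocorticoid-induced genes of lymphoid cells.

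The same drug was also added in the presence of PF-03084014, on 4 arrays that the comparison above did not use, although all 8 arrays share 1 estimate of the spread. Between the combination and PF-03084014, 215 genes (1.09%) were called higher and 347 (1.75%) lower. All 17 genes that rose with dexamethasone alone were called higher here too, with both combination arrays above both PF-03084014 arrays, a pattern held by 23.2% of all genes. After the floor was applied, none of the 3 genes that fell was called again or had both combination arrays below both PF-03084014 arrays, as 20.1% of all genes did: HIC1, LINC02805 and SCAT1 were near or below the floor of 16 on the PF-03084014 arrays, so no fall could be measured there. One combination array had a higher median, 76.3 against 61.8 to 63.9 on the other 7 arrays, and its part in these values was not tested.

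TSC22D3 read 475 and 430 with PF-03084014 and 7836 and 7697 with the combination, a rise of 4.10 against 3.34 without the inhibitor. BCL2L11 read 759 and 858 against 3115 and 3265, a rise of 1.98 against 1.04. EOMES read 145 and 146 against 950 and 865, a rise of 2.64 against 1.10. The combination arrays were the highest of the series for each of the 3 genes. FKBP5 rose by 0.71 against 0.68, and MACROD2 by 2.12 against 2.92.

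Expected responders that missed the threshold with dexamethasone alone were partly called in these other arrays, 5 of 22. They were NR3C1 (0.90, adjusted p = 0.0148), BMF (2.69, adjusted p = 0.0148), PIK3IP1 (2.68, adjusted p = 0.0240), KLF13 (0.55, adjusted p = 0.0290) and IL7R (1.06, adjusted p = 0.00526). GEM, ELOVL6 and CDK2, lower without a call before, fell here by 1.45, 1.16 and 0.58 (adjusted p = 0.0246, 0.0148 and 0.0104). The dim targets KLF9, CEBPD and ZBTB16 were not called in either setting.

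Whether the inhibitor changed the size of a dexamethasone effect was tested as an interaction, and limma called no gene (lowest adjusted p = 0.306; 1792 genes at an unadjusted p under 0.05). The interaction estimates were 1.54 ± 0.13 for EOMES, 1.06 ± 0.20 for PFKFB2, 0.94 ± 0.096 for BCL2L11, 0.77 ± 0.073 for IL7R, 0.76 ± 0.12 for TSC22D3 and 0.03 ± 0.080 for FKBP5. A floor of 64 gave 8 interaction calls. Leaving out the first combination array gave 1016, with the combination then read from 1 array alone, the one with the median of 76.3, and leaving out the second gave 0. The number of interaction calls thus depends on these settings, and a difference in effect size with PF-03084014 is not shown for any gene named here by the fit with all arrays.

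**Figure D5:**
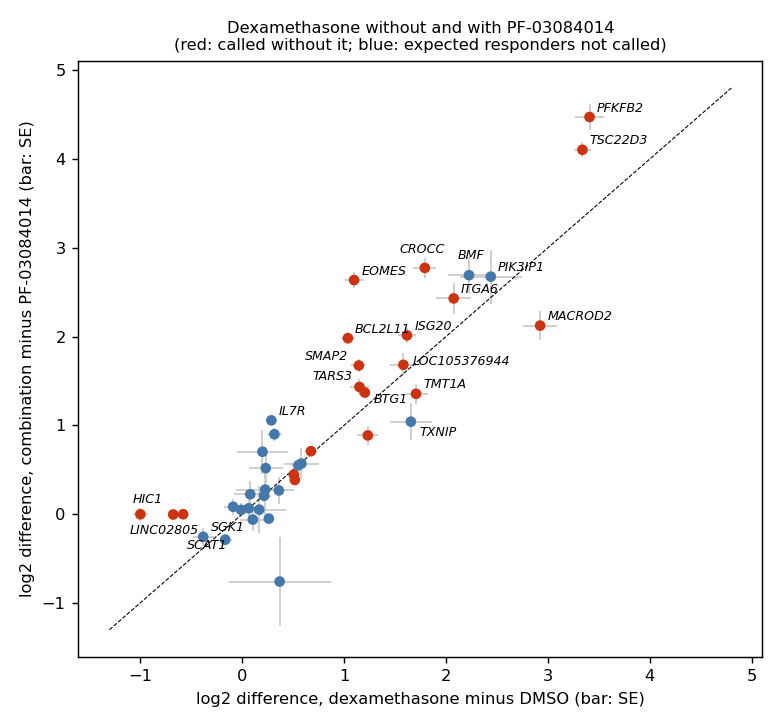
Log2 difference with dexamethasone added to PF-03084014 (vertical axis) against that of dexamethasone alone (horizontal axis) for the called genes (red) and the expected responders not called (blue), with standard errors as bars and the line of equal effect dashed. EOMES, BCL2L11 and IL7R lie above the line at 2.64, 1.98 and 1.06, MACROD2 lies below it, and HIC1, LINC02805 and SCAT1 lie at or close to 0 on the vertical axis, where the PF-03084014 and combination arrays were at, below or just above the floor.

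The count of calls rests on few arrays. With 2 arrays in each group an exact two-sided permutation test of a single gene cannot give a p below 0.333, so each call depends on the spread that limma pools over genes and groups. Without the first or the second DMSO array 1 and 2 genes were called higher, without either PF-03084014 array 1, without either combination array 5, and without either dexamethasone array limma called none (784 and 728 genes were higher at an unadjusted p under 0.05). Using the 4 arrays alone limma also called none, with 1659 genes higher at an unadjusted p under 0.05. Shifting all arrays to a common median left 2 calls higher and 0 lower, and quantile normalization 10 and 3. TSC22D3 was called in 14 of the 17 other settings, PFKFB2 in 10, BTG1 in 9, ISG20 in 8, BCL2L11 in 4 and FKBP5 in 3.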

How the data were processed

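RNA of 8 CUTLL1 samples was measured on Affymetrix 3 prime expression arrays from 200 ng of total RNA, per the labels. The authors deposited a linear intensity for each of 54675 probe sets; how they were summarised, background-corrected and normalised is not given in the sources used here. Of these probe sets, 41097 name 1 gene in the platform annotation, 1801 several and 11777 none; only the first were used. Intensities below a floor of 16 were set to 16 and converted to log2, and each of 19775 genes was read from its brightest probe set over the 8 arrays. Depth is limited by the number of arrays: the median standard error of a difference was 0.178. Differences were fitted with limma 3.58.1 in R 4.3.3, with a mean for each group (4 residual degrees of freedom) and an intensity trend in eBayes, two-sided, Benjamini-Hochberg adjusted over all genes. The fit was tested on simulated data.

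Members and lists were chosen with earlier results of these data known. Genes were named from all called genes, 28 expected responders, from each list the called members and those with the largest rise, largest fall and smallest p, and the 10 largest uncalled differences in each direction (mean of at least 100 in the higher group, groups apart). Replicate numbers paired the arrays weakly at most: deviations of same-numbered arrays correlated at -0.01 to 0.08. This correlation runs over all genes, dim ones included, so a small shared effect of the replicate number could go unseen. Alternatives were other normalizations, floors, filters, probe-set rules and variance models, the replicate number as a block, and leaving out each array.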

Additional observations from a re-analysis of the deposited data

How the results depend on the processing

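In place of 17 genes called higher and 3 lower, quantile normalization gave 10 and 3, a shift to a common median 2 and 0, a floor of 64 gave 24 and 4, a pseudocount of 16 gave 53 and 3, a minimum mean intensity of 100 gave 55 and 6, averaging a gene's probe sets gave 6 and 2, a fit without an intensity trend 9 and 1, and the 4 arrays alone 0 and 0. Of the 20 called genes, 12, 2, 11, 17, 17, 8, 10 and 0 were called again in these settings, in that order. The replicate block gave 3 and 0, and pairing by replicate number was weak over all genes. Leaving out each array in turn gave 0 to 5 genes higher and 0 to 1 lower. The share of higher genes among the calls, 85.0% as reported, was 76.9% with quantile normalization and 100% with the common median. Called genes that went the same way, with separate arrays, when dexamethasone was added to PF-03084014 (17 as reported) numbered 10 with quantile normalization, 2 with a common median, 56 with the pseudocount, 60 with the minimum mean, 6 with averaged probe sets, 9 without a trend, 3 with the replicate block and 0 to 6 with an array left out. The interaction, with no call as reported, had 8 with a floor of 64 and 0 to 1016 with an array left out; the other settings gave none. The cause was not tested, except that fewer genes are tested with a minimum mean (10792) and fewer arrays carry the fit when some are left out. Of the 31 gene lists, 21 kept the sign of their median in all 17 settings and 10, those with medians close to 0, did not. Signal near background limits the dim genes, among them HIC1, LINC02805 and SCAT1, which had no difference left with a floor of 64.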
